A study of Mus musculus with 24 samples.

Results

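The 31 genes described here carry out or control fatty acid uptake and mitochondrial beta-oxidation, and their expression was followed in reperfused mouse infarcts with and without insulin-like growth factor 1 (IGF1). They were taken from a list of symbols by biochemical step, and all 31 were among the 15875 genes tested. The steps are uptake (4 genes), acyl-CoA synthesis and hydrolysis (3), the carnitine shuttle and its malonyl-CoA control (6), the beta-oxidation spiral (8), auxiliary enzymes (4), electron transfer (3) and transcriptional regulators (3).

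Male C57BL6/J mice had the left anterior descending coronary artery closed for 45 min and then reopened, and total RNA of the anterior wall was taken 24, 48 or 168 h later. In the IGF1 groups, recombinant IGF1 was given as a bolus of 40 ng/g at reperfusion and by osmotic pump at 1 µg/g per day for the first 3 days, so the 168 h hearts were sampled after the pump's stated period. The vehicle groups are labelled as having had the same 45 min ischemia with phosphate-buffered saline and bovine serum albumin. The series description instead calls its controls sham-operated, and the sample labels were followed. There were 4 arrays in each of the 6 groups, the labels used here give no age, and nothing in them ties an array to an animal. The p-values therefore cover the spread among deposited samples, which may be partly technical.

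Fatty acids are the main fuel of the adult heart. They enter the cardiomyocyte through carriers such as CD36, are joined to coenzyme A, cross into the mitochondrion as carnitine esters, and are shortened by repeated rounds of dehydrogenation, hydration, oxidation and thiolysis, with electrons passing to the respiratory chain through the electron transfer flavoprotein. The nuclear receptors PPAR-alpha and ERR-alpha and their coactivator PGC-1alpha drive many of these genes, and the pathway is known to fall in injured and failing hearts.

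Levels are log2 fluorescence of the brightest kept probe of each gene relative to the 75th percentile of its array. Probe brightness differs between genes, so levels are compared only between groups of the same gene. The array's 75th percentile lay between 372 and 622 fluorescence units, and arrays of the same group correlated across genes with r of 0.983 to 0.993. The 31 genes were well above background on 4 of 4 arrays in every group. The 21 genes of a cardiomyocyte marker list were likewise well above background on 24 of 24 arrays. In whole tissue, fewer cells of a type and less RNA per cell cannot be told apart. A gene is called changed when its limma test, with Benjamini-Hochberg adjustment over all genes tested, gives an adjusted p under 0.05.

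The comparison of IGF1 with vehicle asks at each time how these genes differed with treatment in the tissue labelled infarct area. At 24 h of reperfusion, 28 of the 31 genes were higher with IGF1 and 0 were lower, against 8.76% of all genes tested called higher and 7.26% called lower. The 4 IGF1 arrays did not overlap the 4 vehicle arrays for these 28 genes and lay above them, as they did for 10.1% of all genes, while 8.31% of all genes lay below without overlap. The median log2 difference of the 31 genes was 0.71 (range 0.32 to 1.38), beside 0.01 for all genes tested. The 3 genes not called were Fabp3, Acot13 and Esrra. By step, 3 of 4 uptake genes, 2 of 3 activation genes, 6 of 6 shuttle genes, 8 of 8 spiral genes, 4 of 4 auxiliary genes, 3 of 3 electron transfer genes and 2 of 3 regulators rose. The median difference was 1.04 for activation, 0.87 for the shuttle, 0.71 for uptake and 0.69 for the spiral. It was 0.68 for the auxiliary enzymes, 0.67 for the regulators and 0.58 for electron transfer.

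**Figure D1:**
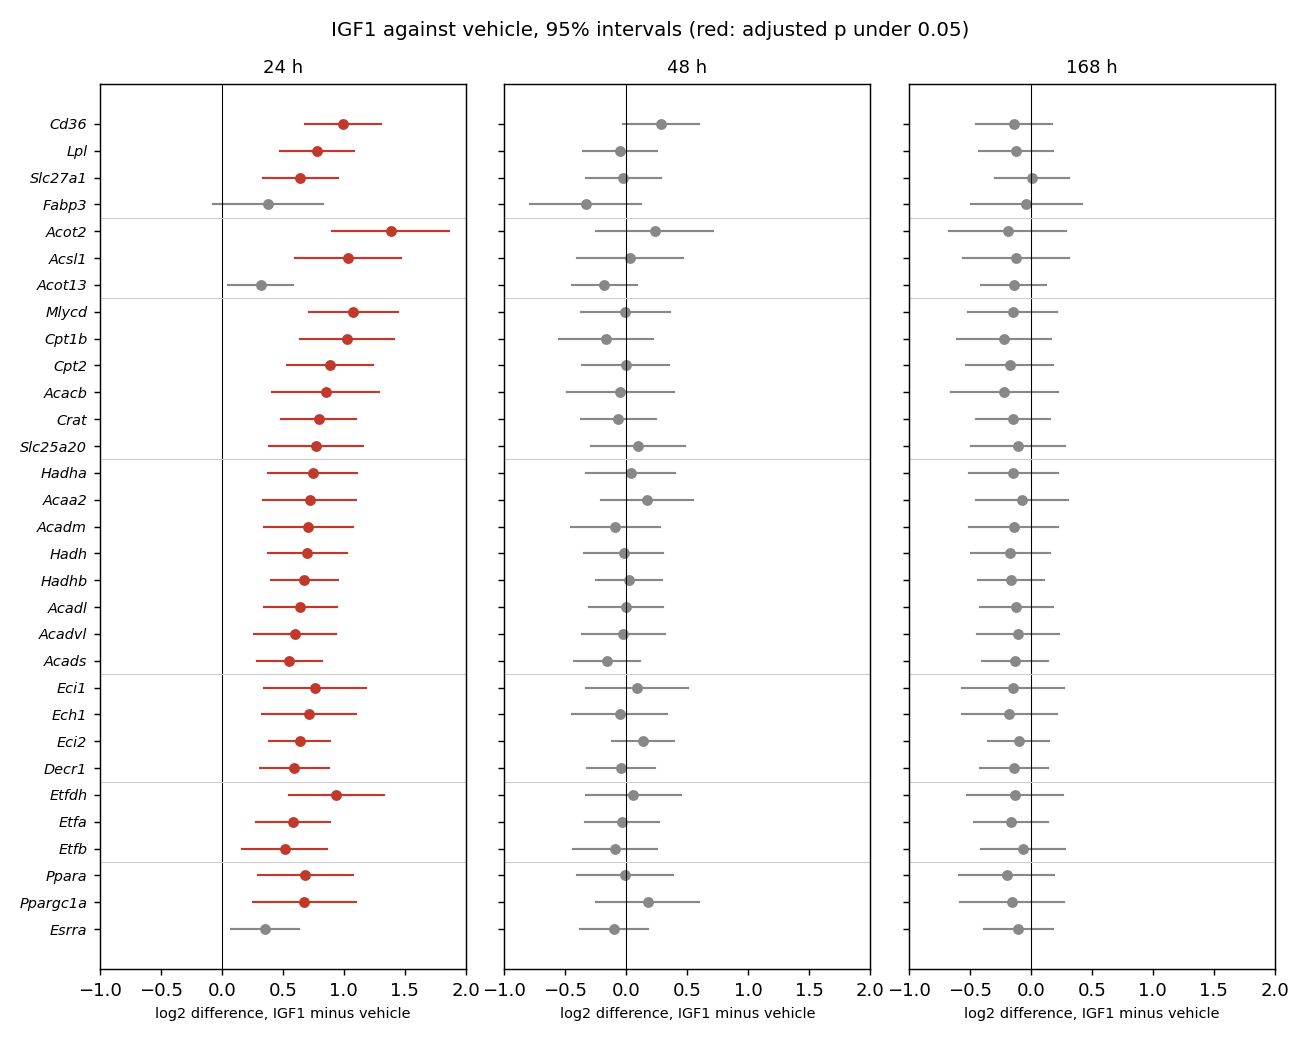
Log2 difference of IGF1 minus vehicle for each of the 31 genes (points) with its 95% interval from limma (lines) at 24, 48 and 168 h. Genes are grouped by step from uptake at the top to regulators at the bottom, and red marks an adjusted p under 0.05. At 24 h, 28 genes are red, and at 48 and 168 h every interval includes 0.

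Promoter windows from RefSeq (GRCm38.p6, 250 bases before to 50 after a start site) were at hand for 25 of the 31 genes and were searched on both strands for letters that PPAR and ERR receptors are known to bind. The table held no window for Lpl, Acot13, Cpt1b, Crat, Acaa2 and Decr1. A direct repeat of the half-site AGGTCA with 1 free base between the copies, the PPAR-RXR type of site, had 0 exact matches in the windows of these 25 genes. With up to 2 mismatches outside the free base it was found for 3 of 25 genes (12.0%), Cd36, Etfa and Slc25a20, beside 4.40% of the 27025 genes with a window. The ERR-type motif TCAAGGTCA was found for 0 of 25 genes, beside 0.466% of all. The half-site alone, which both longer motifs contain, was found for 4 of 25 genes (16.0%), Cd36, Acadm, Acadvl and Acacb, beside 18.1% of all. A match is a description of the letters in this short window, and the windows leave out distal elements. The 5 matches that lie wholly upstream of a start are printed in the gene's direction, with the matched letters in capitals. All 4 of the genes they belong to rose at 24 h, as did 28 of all 31, so the rise does not set them apart.
Cd36 repeat: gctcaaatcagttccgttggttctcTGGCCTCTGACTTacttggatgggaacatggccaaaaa
Etfa repeat: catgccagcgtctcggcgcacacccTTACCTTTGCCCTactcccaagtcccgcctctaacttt
Cd36 half-site: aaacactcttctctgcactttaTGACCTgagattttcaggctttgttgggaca
Acadm half-site: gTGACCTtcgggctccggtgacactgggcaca
Acadvl half-site: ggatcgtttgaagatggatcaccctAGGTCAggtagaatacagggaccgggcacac
In the same order these lie at chr5:17835922-17835984, chr9:55512283-55512345, chr5:17836094-17836146, chr3:153944862-153944893 and chr11:70015485-70015540, all 5 on the minus strand. Counted from the start site, the repeat begins at base -63 in Cd36 and at base -77 in Etfa, and the half-site at base -228 in Cd36, -249 in Acadm and -87 in Acadvl. The half-site of Acadvl reads in the gene's direction and the 4 other matches on the opposite strand.

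Hadha and Hadhb encode the alpha and beta subunits of the mitochondrial trifunctional protein, and their RefSeq start sites face away from each other across 272 bases, the sole pair among these genes whose promoter windows overlap. The whole interval between the start sites is printed because both genes rose at 24 h, by 0.74 and 0.68 on the log2 scale. It lies at chr5:30154981-30155252 (plus strand), its GC content is 60.3%, and it holds 0 matches to the half-site, so no letters are in capitals.
Hadha-Hadhb interval: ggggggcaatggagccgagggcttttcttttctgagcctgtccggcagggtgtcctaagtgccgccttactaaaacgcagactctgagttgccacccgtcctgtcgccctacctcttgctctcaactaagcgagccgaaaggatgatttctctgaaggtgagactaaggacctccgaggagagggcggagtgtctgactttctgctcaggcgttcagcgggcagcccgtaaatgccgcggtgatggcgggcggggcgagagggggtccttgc

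Among the uptake genes, Cd36, the long-chain fatty acid translocase of the plasma membrane, changed most. Its log2 level at 24 h was 4.38, 3.86, 4.14 and 4.25 on the vehicle arrays and 5.30, 5.34, 4.85 and 5.10 on the IGF1 arrays. The lowest IGF1 array thus lay clearly above the highest vehicle array. Cd36 was 1.99-fold higher with IGF1 (log2 difference 0.99, SE 0.15, limma adjusted p = 0.000632). Lpl, the lipase that frees fatty acids from lipoproteins at the capillary wall, was 1.72-fold higher (adjusted p = 0.00231). Slc27a1, an acyl-CoA synthetase that also promotes uptake, was 1.56-fold higher (adjusted p = 0.0068).

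Fabp3, the fatty acid binding protein of heart muscle cytosol, was not called at 24 h (log2 difference 0.38, SE 0.22, adjusted p = 0.254). Its level was 7.74, 7.49, 7.37 and 8.24 with vehicle and 8.08, 8.06, 7.79 and 8.42 with IGF1, so the groups overlapped. In both groups the highest array was replicate 4, which lay on array slide 4. The other 3 arrays on that slide, replicate 4 of vehicle at 48 h and of each treatment at 168 h, were also the highest of their groups, at 8.24, 8.44 and 8.30. At 24 h each slide held 1 array of each treatment, and Fabp3 was higher with IGF1 on all 4 slides, by 0.18 to 0.57. With slide as a block in the fit, Fabp3 passed the threshold (SE 0.10, adjusted p = 0.0143), as did Esrra (adjusted p = 0.0195), which brought the count to 30 of 31 genes. Calls rose in general, with 1956 of all 15875 genes tested called higher, beside 1390 without the block.

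Of the genes that make and split acyl-CoA, Acot2, a mitochondrial thioesterase, had the largest change of the 31 genes. Its level was 2.01, 1.42, 1.86 and 1.90 with vehicle and 3.64, 3.05, 2.73 and 3.31 with IGF1 at 24 h. The groups were far apart, with a 2.61-fold higher mean (log2 difference 1.38, SE 0.23, adjusted p = 0.00127). Its cytosolic paralog Acot1, close to it in sequence, was 3.38-fold higher (adjusted p = 0.00231), and signal shared between the probes of such copies was not tested. Acsl1, the main long-chain acyl-CoA synthetase of heart, was 2.05-fold higher (log2 difference 1.04, SE 0.21, adjusted p = 0.00359). Acot13, another thioesterase, was not called (log2 difference 0.32, SE 0.13, adjusted p = 0.0932).

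The shuttle genes rose as a whole set, 6 of 6. Mlycd, the decarboxylase that removes malonyl-CoA, changed most among them. It stood at 3.94, 3.62, 3.71 and 3.87 with vehicle and at 5.31, 4.93, 4.43 and 4.77 with IGF1 at 24 h. The groups did not overlap, with a 2.11-fold higher mean (log2 difference 1.08, SE 0.18, adjusted p = 0.00107). Cpt1b, the muscle carnitine palmitoyltransferase of the outer mitochondrial membrane that malonyl-CoA inhibits, was 2.04-fold higher (adjusted p = 0.00193). Cpt2, its inner membrane partner, was 1.85-fold higher and Slc25a20, the carnitine-acylcarnitine exchanger, 1.71-fold higher (adjusted p = 0.00268 and 0.00937). Crat, the short-chain carnitine acetyltransferase, was 1.73-fold higher (adjusted p = 0.00227). Acacb, the acetyl-CoA carboxylase that makes malonyl-CoA at the mitochondrion, acts against the shuttle and rose as well, 1.80-fold (adjusted p = 0.0105). A second, dimmer probe of Acacb differed by only 0.05 on the log2 scale between the groups at 24 h, so the rise rests on the brightest probe. By the probes used, the genes for removing and for making the inhibitor were both higher.

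The spiral genes moved by similar amounts, from 0.55 for Acads to 0.74 for Hadha. Hadha stood at 2.76, 2.70, 2.68 and 2.68 with vehicle and at 3.97, 3.52, 3.31 and 3.0 with IGF1. The vehicle arrays were nearly equal and the IGF1 arrays spread widely above them (1.68-fold, SE of the log2 difference 0.18, adjusted p = 0.00833). The acyl-CoA dehydrogenases, which open each round on chains of falling length, were higher by 0.60 for Acadvl, 0.64 for Acadl, 0.71 for Acadm and 0.55 for Acads. Hadh, which oxidises short and medium hydroxyacyl-CoA, was higher by 0.70, Acaa2, the thiolase that closes the round, by 0.72, and Hadhb by 0.68. Adjusted p-values of the 8 spiral genes lay between 0.00272 and 0.0171.

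The auxiliary enzymes rearrange unsaturated fatty acids so that they can enter the spiral. Eci1, an enoyl-CoA isomerase, stood at 5.24, 5.18, 5.17 and 5.24 with vehicle and at 6.48, 5.81, 5.74 and 5.86 with IGF1 at 24 h. Replicate 1 of the IGF1 group was the highest and the others were close together, all above vehicle (1.70-fold, SE of the log2 difference 0.20, adjusted p = 0.0151). The isomerases Ech1 and Eci2 were higher by 0.71 and 0.64, and the dienoyl-CoA reductase Decr1 by 0.59 (adjusted p = 0.0144, 0.00248 and 0.00666).

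Etfdh, the oxidoreductase that hands electrons from the flavoprotein to ubiquinone, stood at 4.91, 4.54, 4.68 and 5.13 with vehicle and at 6.20, 5.62, 5.54 and 5.66 with IGF1. It was 1.92-fold higher without overlap (log2 difference 0.94, SE 0.19, adjusted p = 0.00349). The flavoprotein subunits Etfa and Etfb were higher by 0.58 and 0.51 (adjusted p = 0.0115 and 0.0395).

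Among the regulators, Ppara, the nuclear receptor that senses fatty acids, stood at 2.20, 1.80, 2.03 and 2.23 with vehicle and at 3.0, 2.65, 2.52 and 2.82 with IGF1 at 24 h. It was 1.61-fold higher without overlap (log2 difference 0.69, SE 0.19, adjusted p = 0.0182). Ppargc1a, the coactivator PGC-1alpha, stood at 2.67, 2.62, 2.31 and 2.73 against 3.79, 3.19, 2.94 and 3.10 with IGF1. It too was higher without overlap, 1.6-fold (log2 difference 0.67, SE 0.20, adjusted p = 0.0292). Esrra, the receptor ERR-alpha, stood at 4.84, 4.86, 4.63 and 5.07 against 5.47, 5.0, 5.08 and 5.27. Its groups overlapped, and it was not called (log2 difference 0.35, SE 0.13, adjusted p = 0.0768).

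**Figure D2:**
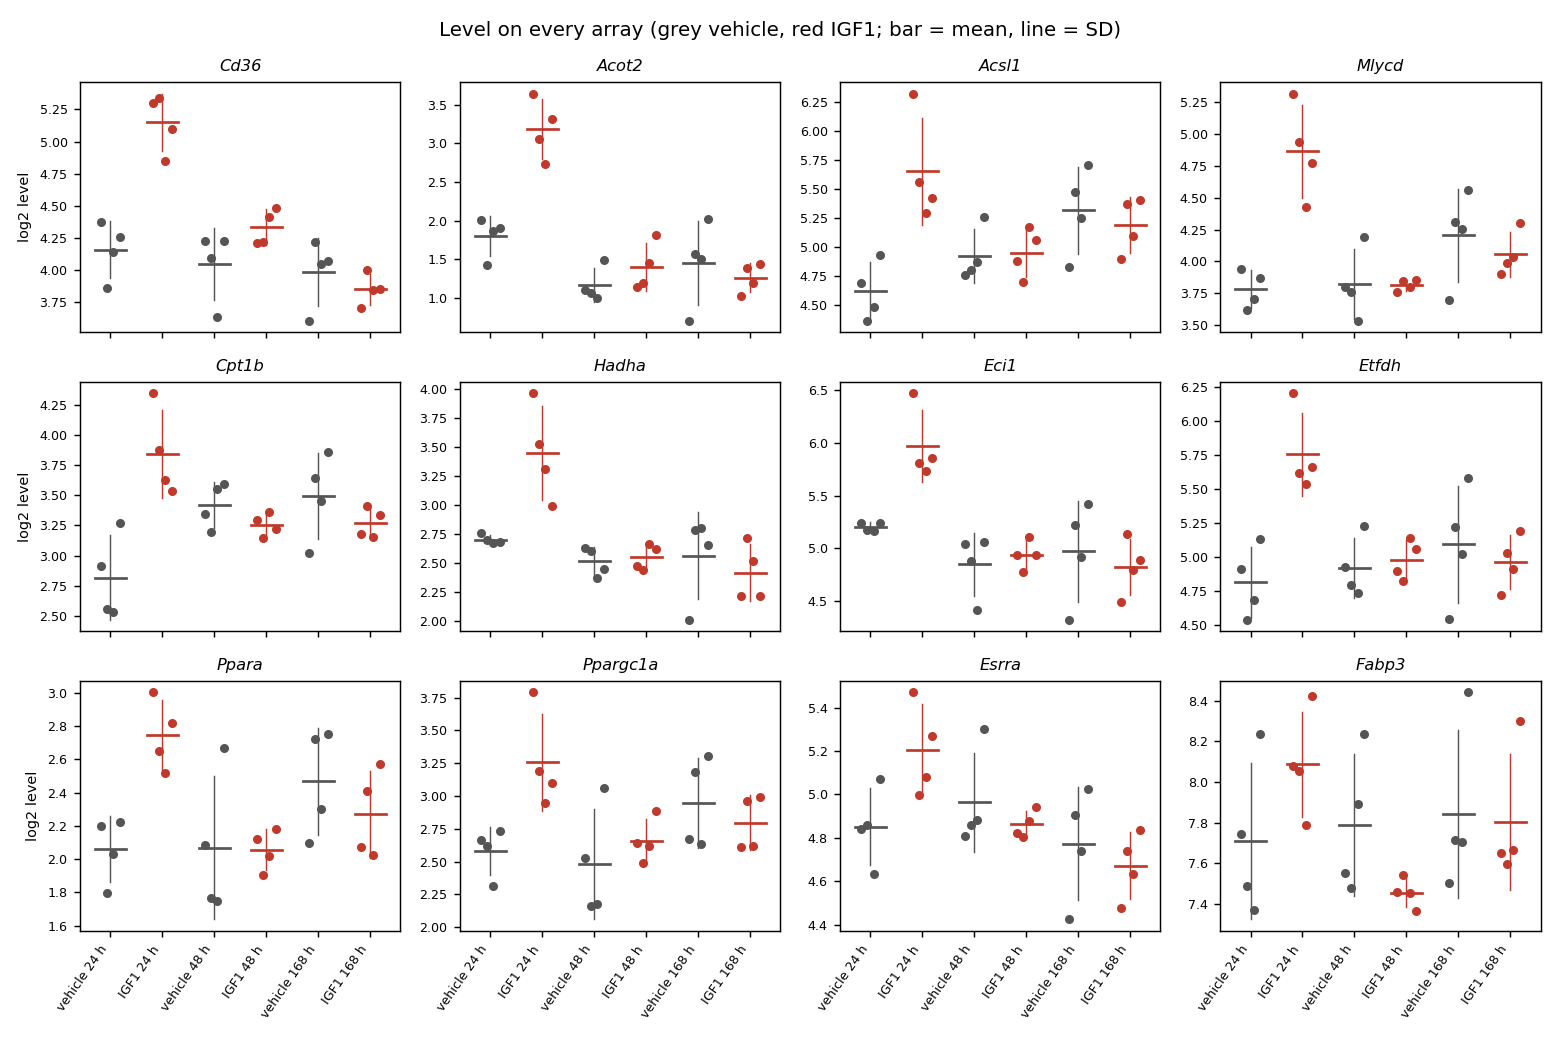
Log2 level relative to the array's 75th percentile for 12 of the genes on each of the 24 arrays (points, 4 per group), with the group mean (horizontal bar) and SD (vertical line), vehicle in grey and IGF1 in red. The IGF1 arrays at 24 h stand above the vehicle arrays at 24 h in all panels except Esrra and Fabp3, where the groups overlap.

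Replicate 1 of the IGF1 group at 24 h was the highest array of its group for the mean of each of the 7 steps. Without it, 19 of the 31 genes were still called higher and the median difference was 0.57. The 9 genes no longer called were Acadm, Acadvl, Acaa2, Ech1, Eci1, Etfa, Etfb, Ppara and Ppargc1a. Within slides, each holding 1 array of each treatment at 24 h, the mean over the 31 genes was higher with IGF1 by 1.06, 0.81, 0.65 and 0.42 on slides 1 to 4. The difference was positive for 31 of 31 genes on slides 1, 2 and 3 and for 30 of 31 on slide 4. When only the 8 arrays at 24 h entered the fit, 18 of the 31 genes were called higher. Calls fell in general, with 435 of all 15875 genes tested called higher, beside 1390 in the fit of all 24 arrays. For the fit without replicate 1 the share of all genes called is not given here.

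Markers of heart muscle and of immune cells also differed at 24 h. Of the 21 cardiomyocyte markers, 10 rose and 0 fell, with a median of 0.31, beside 8.76% of all genes called higher and 7.26% lower. Myoz2, a Z-disc protein, was 1.67-fold higher, Atp2a2, the SERCA calcium pump, 1.72-fold, and Mb, myoglobin, 1.36-fold (adjusted p = 0.00248, 0.00401 and 0.00647). Their summed signal relative to the 75th percentile was 3466 to 4489 on the vehicle arrays and 4439 to 5367 on the IGF1 arrays. The mean of the list was higher with IGF1 by 0.56, 0.42, 0.41 and 0.03 on slides 1 to 4, on each slide less than the mean of the 31 fatty acid genes. Relative to the mean of this marker list, 20 of the 31 genes were still called higher with IGF1 and 0 lower, beside 2.10% of all genes called higher and 38.9% called lower on that scale, and the median was 0.35. On that scale the largest differences were those of Acot2 (1.03), Mlycd (0.72), Acsl1 (0.68) and Cpt1b (0.67). Esrra (0.00), Acot13 (-0.03) and Fabp3 (0.02) lay near 0. The scaling lowered the median of all genes to -0.35.

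**Figure D3:**
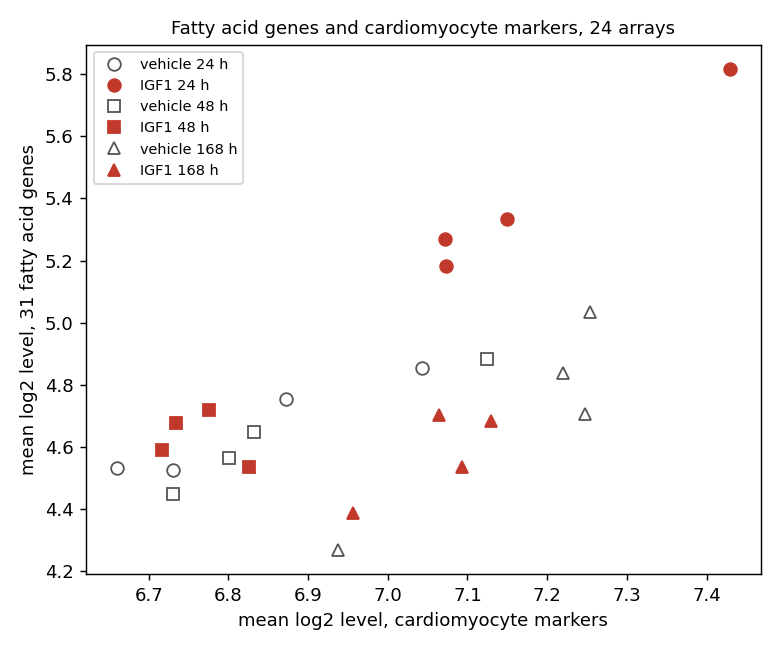
Mean log2 level of the 31 fatty acid genes (vertical axis) against that of the 21 cardiomyocyte markers (horizontal axis) on each of the 24 arrays, both relative to the array's 75th percentile. Red filled symbols are IGF1, open grey symbols vehicle, with circles for 24 h, squares for 48 h and triangles for 168 h. The 4 IGF1 arrays at 24 h have mean fatty acid gene levels of 5.18 to 5.82, above the 20 other arrays, which reach 5.03, while the marker means overlap between IGF1 at 24 h (7.07 to 7.43) and vehicle at 168 h (6.94 to 7.25).

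The mean of the 31 genes minus that of the markers was -1.78 ± 0.12 with IGF1 and -2.16 ± 0.04 with vehicle at 24 h (SD, n = 4), and the arrays of the groups did not overlap. Of 14 macrophage markers, 7 fell with IGF1 and 0 rose, beside 7.26% of all genes called lower. Their summed signal was 170 to 176 on the vehicle arrays and 130 to 147 on the IGF1 arrays. Of 10 lymphocyte markers 9 fell, with sums of 3.79 to 4.98 and 1.74 to 2.56. Of 11 fibroblast and 9 neutrophil markers 0 were called in either direction. In the 6 measured adipocyte markers, Lipe and Fabp4 rose (2.01-fold and 1.68-fold). Of the other listed markers, Lep was well above background on 24 of 24 arrays, Cfd on 20, Retn on 18 and Cidec on 8. Adipoq was so on 3 arrays, Pck1 on 1 and Plin1 on 0. The summed signal of the 6 was 89.2 to 128 with vehicle and 125 to 224 with IGF1. Their mean log2 level was nearly unchanged, at -1.25 with vehicle and -1.21 with IGF1, so Lipe and Fabp4 do not stand for the whole list. The part of these cell types in the result was not tested. Scaling by cardiomyocyte markers cannot tell more muscle cells from more RNA per cell.

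Other genes of lipid and energy metabolism were measured on the same arrays, in lists given by function. Their counts at 24 h stand beside 8.76% of all genes called higher and 7.26% called lower. At 24 h, 15 of 17 further acyl-CoA enzymes rose with IGF1 and 0 fell. Echdc3, an enoyl-CoA hydratase domain protein, was 1.81-fold higher, Echs1, the short-chain enoyl-CoA hydratase, 1.53-fold, and Acad11, an acyl-CoA dehydrogenase, 1.92-fold (adjusted p = 0.00198, 0.00349 and 0.00376). Of 17 peroxisomal genes 10 rose, among them the transporter Abcd3 (1.6-fold) and the bifunctional enzyme Ehhadh (1.83-fold). Of 12 further genes of acyl-CoA synthesis and hydrolysis 4 rose, led by Acot1, the acetyl-CoA synthetase Acss1 (1.95-fold) and the acyl-CoA binding protein Dbi (1.28-fold). Of 10 further carnitine genes 1 rose, near the share of all genes. It was the carnitine carrier Slc22a5 (1.40-fold, adjusted p = 0.00981). Of 9 further uptake genes 4 rose and 1 fell. Fabp4, the very low density lipoprotein receptor Vldlr and Gpihbp1, which anchors lipoprotein lipase in capillaries, rose 1.68-fold, 1.58-fold and 1.64-fold.

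Of 14 genes listed as PPAR targets, 8 rose at 24 h with a median difference of 0.79, beside 8.76% of all genes called higher. Plin5, which coats lipid droplets of oxidative tissue, was 3.14-fold higher, and Pex11a, a peroxisome division factor, 1.64-fold (adjusted p = 0.000526 and 0.00159). Of 15 lipid droplet genes 9 rose, and besides Plin5 these included Plin4 (2.00-fold) and the triglyceride lipase gene Pnpla2 (1.91-fold). Of 6 ketone genes 3 rose, among them Oxct1, which activates ketone bodies for oxidation (log2 difference 0.37, adjusted p = 0.0307), and the thiolase Acat1 (0.60, adjusted p = 0.0326). Of 22 further regulators 7 rose, among them Klf15 (2.03-fold), Ppargc1b (1.6-fold) and the mitochondrial deacetylase Sirt3 (1.49-fold). Downstream of beta-oxidation, 16 of 18 tricarboxylic acid cycle genes rose with a median of 0.50, and 15 of 20 respiratory chain genes with a median of 0.43. Idh3g and Ogdh of the cycle were 1.41-fold and 1.46-fold higher, and Cox4i1, Atp5c1 and Ndufs1 of the chain 1.30-fold, 1.35-fold and 1.49-fold. Of 22 glucose genes 8 rose, including the pyruvate dehydrogenase kinase Pdk2 (1.84-fold), the phosphofructokinase Pfkm (1.64-fold) and the lactate dehydrogenase subunit Ldhb (1.53-fold). In these lists of lipid and energy genes at 24 h, only the uptake list had a called fall, in Slc27a3 (log2 difference -0.37, adjusted p = 0.0469).

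At 48 h, with the pump still within its stated period, 0 of the 31 genes were called in either direction by limma, and 0 had an unadjusted p under 0.05. Of all genes, 0.0126% were called. The median difference was -0.02, single genes ranged from -0.33 for Fabp3 to 0.29 for Cd36, and IGF1 and vehicle arrays overlapped for all 31, while 2.56% of all genes lay higher and 3.33% lower without overlap. The 95% intervals of single genes reached from -0.79 to 0.71, and each of the 31 included 0. Cd36 stood at 4.23, 4.09, 3.63 and 4.22 with vehicle and at 4.21, 4.22, 4.41 and 4.49 with IGF1, where the ranges met (adjusted p = 0.593). Mlycd stood at 3.80, 3.76, 3.54 and 4.20 with vehicle and at 3.76, 3.85, 3.80 and 3.85 with IGF1, with the IGF1 arrays inside the vehicle range. On slide 2, which held 2 arrays of each treatment, 7 of 31 genes were higher with IGF1. On slide 3, with 2 IGF1 arrays and 1 vehicle array, 28 of 31 were higher.

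At 168 h, 0 of the 31 genes were called, 0 had an unadjusted p under 0.05, and 0.00% of all genes were called in either direction. The differences were small and 30 of 31 were negative, with a median of -0.14 and a range of -0.22 to 0.01. All 31 genes overlapped between the groups, whereas 1.11% of all genes lay higher and 1.54% lower without overlap, and 95% intervals reached from -0.67 to 0.42. Acot2 stood at 0.70, 1.57, 1.5 and 2.01 with vehicle and at 1.02, 1.38, 1.2 and 1.43 with IGF1. Here the vehicle arrays were the more scattered, with replicate 1 the lowest and replicate 4 the highest. Without vehicle replicate 1 the median difference of the 31 genes was -0.29, and without vehicle replicate 4 it was -0.03, with 0 genes called in both cases. None of the further lists of lipid and energy genes held a called gene at 48 or 168 h.

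**Figure D4:**
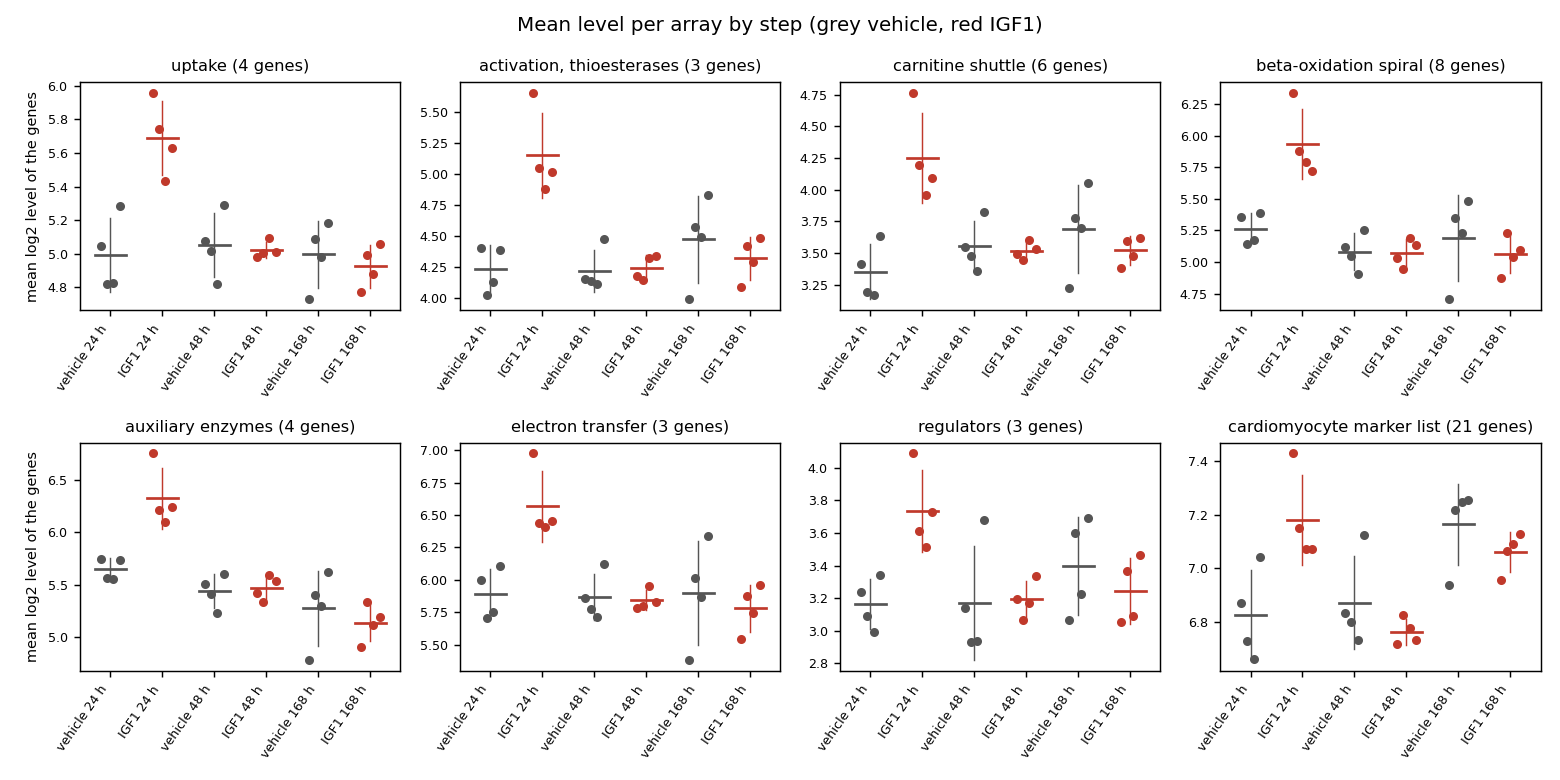
Mean log2 level of the genes of each step, and of the cardiomyocyte marker list in the last panel, on each of the 24 arrays (points), with the group mean (horizontal bar) and SD (vertical line, n = 4), vehicle in grey and IGF1 in red. In all 7 steps the IGF1 arrays at 24 h lie above the vehicle arrays at 24 h, and at 48 and 168 h the treatments overlap.

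Whether the IGF1 difference itself changed with time was tested by the interaction of treatment and time. From 24 to 48 h the difference shrank in 31 of 31 genes, with a median change of -0.70, and 30 had an unadjusted p under 0.05. None passed limma's adjusted threshold, which 0.0693% of all genes did, and the smallest adjusted p was 0.0669, for Cpt1b (change -1.19, SE 0.26). From 48 to 168 h, 0 genes were called, 0 had an unadjusted p under 0.05, and 0.00% of all genes were called. From 24 to 168 h, 23 of 31 genes were called with a lower IGF1 difference, beside 5.35% of all genes, and the median change was -0.87. All 6 shuttle genes and all 4 auxiliary enzymes were among the 23, with 6 of 8 spiral genes, 2 of 4 uptake genes, 2 of 3 activation genes, 2 of 3 electron transfer genes and 1 of 3 regulators, Ppara. Cd36 changed by -1.13 (SE 0.21, adjusted p = 0.00429), Mlycd by -1.23 (SE 0.25, adjusted p = 0.00603) and Acot2 by -1.57 (SE 0.33, adjusted p = 0.0068).

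Across the 3 times together, the F-test of the interaction called 15 of 31 genes, beside 5.60% of all genes. These counts moved with single arrays. How many of all genes were called without each array is not given here, so whether other genes moved alike cannot be told. Without IGF1 replicate 1 at 24 h, the change from 24 to 168 h was called in 13 genes and the F-test in 7. Without vehicle replicate 2 at 24 h the counts were 15 and 4, and without vehicle replicate 2 at 168 h they were 13 and 8. The F-test called 8 genes each without vehicle replicate 3 at 24 h and without IGF1 replicate 3 at 168 h, and 9 without vehicle replicate 3 at 168 h. It called 26 without vehicle replicate 1 at 168 h. For the change from 24 to 48 h, 6 genes were called without vehicle replicate 3 at 48 h, 4 without IGF1 replicate 4 at 24 h and 2 without vehicle replicate 3 at 24 h.

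The time course within each treatment shares its arrays with the comparisons above. In vehicle hearts the differences from 24 to 48 h ranged from -0.64 for Acot2 to 0.60 for Cpt1b, with a median of -0.08. Cpt1b was the sole gene called higher (1.52-fold, log2 difference 0.60, adjusted p = 0.0232), beside 11.2% of all genes, and 0 were called lower, beside 11.5%. Its level was 2.91, 2.55, 2.53 and 3.27 at 24 h and 3.34, 3.19, 3.55 and 3.60 at 48 h, so 1 array at 24 h reached into the 48 h range. Acot2 (-0.64, adjusted p = 0.051) and Acacb (0.55, adjusted p = 0.065) missed the threshold. Hadha and Eci1 had all 48 h arrays below all 24 h arrays and 0 genes had all above, beside 12.8% and 10.9% of all genes. The call for Cpt1b was lost without vehicle replicate 2 or 3 at 24 h or replicate 3 or 4 at 48 h, and with only the vehicle arrays at those times fitted. In IGF1 hearts, 29 of 31 genes were lower at 48 than at 24 h, beside 21.3% of all genes, and 29 had all arrays at 48 h below all arrays at 24 h, beside 21.0%. The median log2 difference was -0.75. The largest fall was that of Acot2, from 3.64, 3.05, 2.73 and 3.31 to 1.13, 1.19, 1.45 and 1.82 (log2 difference -1.79, SE 0.23, adjusted p = 7.68e-06). The genes not called were Acot13 and Acacb.

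From 48 to 168 h in vehicle hearts, 0 of 31 genes were called and 6 had an unadjusted p under 0.05, beside 53.2% of all genes called in either direction. Without vehicle replicate 1 at 168 h, 8 genes were called higher, without vehicle replicate 4 at 48 h 5 higher, and without vehicle replicate 4 at 168 h 2 lower. For the fits in this paragraph that leave out 1 array, the share of all genes called is not given. Their counts are therefore not read as a result about these genes. In IGF1 hearts, Cd36, Acaa2, Ech1, Eci2 and Decr1 fell over the same interval, 5 of 31 genes beside 26.2% of all genes. Cd36 went from 4.21, 4.22, 4.41 and 4.49 to 3.70, 4.0, 3.85 and 3.85, without overlap (log2 difference -0.48, SE 0.15, adjusted p = 0.0111). The count was 1 without IGF1 replicate 1 at 168 h, 2 without IGF1 replicate 3 or 4 at 48 h and 3 without IGF1 replicate 3 at 168 h. With quantile normalization these 5 genes kept their negative sign and lost their calls, and 3 other genes, Acadm, Acot13 and Fabp3, were called higher, beside 25.3% of all genes higher and 23.3% lower. The IGF1 arrays lay on slides 2 and 3 at 48 h and on slides 1 and 4 at 168 h. Time and slide thus cannot be told apart from those 2 groups alone. In vehicle hearts only slide 4 held arrays of both times.

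Between 24 and 168 h markers of several cell types changed in vehicle hearts. Of 11 fibroblast markers 10 rose, with a median log2 difference of 2.12, of 9 neutrophil markers 6 fell, and of 21 cardiomyocyte markers 8 rose. Over the same interval, 5 of the 31 fatty acid genes were called higher, beside 28.1% of all genes, and 3 lower, beside 32.1%. Those higher were Acacb (1.84-fold, adjusted p = 0.00113), Acsl1 (1.62-fold, adjusted p = 0.00658), Cpt1b (1.6-fold, adjusted p = 0.0035), Mlycd (1.34-fold, adjusted p = 0.044) and Acot13 (1.29-fold, adjusted p = 0.0182). Those lower were Ech1 (log2 difference -0.74, adjusted p = 0.00175), Acaa2 (-0.57, adjusted p = 0.00975) and Decr1 (-0.35, adjusted p = 0.0315). Acacb, chosen as the largest rise, stood at 3.09, 3.02, 2.64 and 3.52 at 24 h and at 3.62, 3.99, 3.84 and 4.33 at 168 h, without overlap. Ech1, the largest fall, stood at 6.30, 6.08, 6.13 and 6.31 at 24 h and at 4.75, 5.56, 5.58 and 5.96 at 168 h, also without overlap. Relative to the cardiomyocyte markers 3 genes were higher and 18 lower, beside 14.8% and 48.8% of all genes on that scale. With quantile normalization 13 were higher and 1 lower, beside 31.1% and 28.9% of all genes. Acacb, Acsl1 and Cpt1b stayed higher and Ech1 lower under every alternative run, while Mlycd lost its call under 11 of 19 alternatives, Decr1 under 7, Acot13 under 4 and Acaa2 under 3, and the balance between higher and lower genes depends on the scaling.

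In IGF1 hearts, 26 of 31 genes were lower at 168 than at 24 h, beside 33.9% of all genes, with a median of -0.79, and 25 had all 168 h arrays below all 24 h arrays, beside 30.1%. The largest fall was again that of Acot2 (log2 difference -1.92, SE 0.23, adjusted p = 4.83e-07), followed by Ech1 (-1.63), Acaa2 (-1.36) and Cd36 (-1.30). Acot2 had reached 1.02, 1.38, 1.2 and 1.43, and the times did not overlap. The 5 genes not called were Fabp3, Acsl1, Acot13, Acacb and Ppargc1a.

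**Figure D5:**
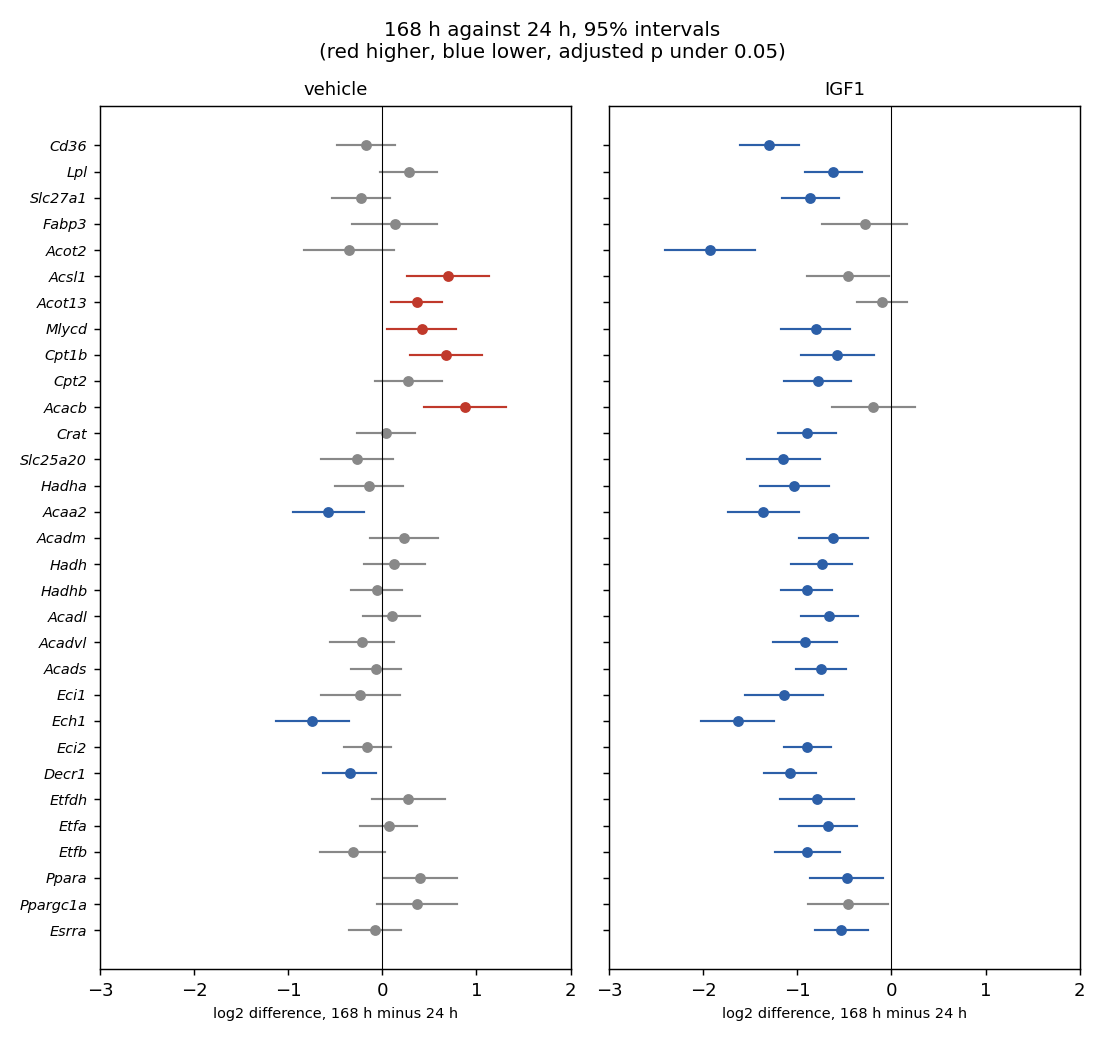
Log2 difference of 168 h minus 24 h for each of the 31 genes (points) with its 95% interval from limma (lines), in vehicle hearts on the left and IGF1 hearts on the right. Red marks a rise and blue a fall with an adjusted p under 0.05. Vehicle hearts show 5 rises and 3 falls, and IGF1 hearts 26 falls, and the IGF1 panel starts from the raised 24 h levels.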

How the data were processed

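Total RNA of 24 heart samples was hybridised to single-colour Agilent mouse arrays. The authors deposited scanner output with processed signal intensity per spot, written by the scanner software (Agilent Feature Extraction, version 12.0.3.2, per the file headers), and a table of log2 values, whose scale and centring are unstated. Differences between arrays in that deposited table matched those of the scanner values to within 0.00262 after centring each probe. Precision is limited by the number of arrays.

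Spots of a probe were averaged after leaving out control spots, log2 intensity was taken relative to each array's 75th percentile, and probes well above background on at least 4 of 24 arrays were kept. Of 56605 probes, 33767 carried 1 gene symbol through RefSeq accessions, and each gene was read from its brightest kept probe, giving 15875 genes. One mean per group was fitted in limma 3.58.1 (R 4.3.3) over all 24 arrays with 18 residual degrees of freedom, and p-values were Benjamini-Hochberg adjusted over all genes at 0.05. On simulated data with 200 changed genes among 15851, the 24 h fit recovered 44% of log2 changes of 0.5 and 85% of those of 1. Of its calls 7.86% were false, more than the threshold of 0.05 aims at. The real comparison at 24 h called 2542 genes, so these rates need not carry over to it.

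Alternatives covered background correction, normalization, the probe filter, probe choice, slide, replicate blocks, array weights, the arrays fitted, the deposited table and leaving out each array. Scaling over spots and a replicate block at 168 h alone were chosen after seeing the data. Same-numbered arrays at 168 h deviated together (correlations 0.186 to 0.502 in 4 of 4 pairs), so there the numbers were taken to pair samples, from the data and not from the labels. The highest of these was that of replicate 4, the sole pair on slide 4, where a shared number and a shared slide cannot be told apart. Correlations were lower at 24 h (-0.0495 to 0.134) and 48 h (-0.00493 to 0.112), and there the numbers were not taken to pair samples. The same number gave the best match in 0 of 4 pairs at 24 h, 3 of 4 at 48 h and 4 of 4 at 168 h. The genes and lists were chosen with earlier results of these data known. All 31 genes are named, with array values for the largest called change of each step at 24 h and the regulators, and up to 3 genes of each other list by smallest p, of which a few are not reported here. Array values of Fabp3, Cpt1b, Acacb and Ech1 were added after seeing the results.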

Additional observations from a re-analysis of the deposited data

Results flagged for a closer look

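Of 186 groups of 4 arrays checked over the 31 genes, 12 held an array far from the other 3 by Dixon's criterion, and chance alone gives about 1 in 20 groups. Replicate 1 of IGF1 at 24 h gave 6 of the 12 and lay high in each, at 6.99 for Acadm, 6.2 for Acadl, 7.72 for Hadhb, 6.48 for Eci1, 6.85 for Etfa and 7.88 for Etfb. Vehicle replicate 4 at 48 h was high for Acadl (5.42) and Esrra (5.30), and vehicle replicate 3 at 48 h was low for Acaa2 (6.75). IGF1 replicate 3 at 48 h was high for Cpt2 (4.87). Vehicle replicate 1 at 168 h was low for Acads (2.75), and IGF1 replicate 4 at 168 h was high for Fabp3 (8.30). Of 48 groups checked over step means and the mean of all 31 genes, 2 held such an array, vehicle replicate 4 at 48 h for the activation genes (4.48) and IGF1 replicate 1 at 24 h for electron transfer (6.98).

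The IGF1 difference was smaller at 168 than at 24 h in 23 genes by limma's interaction test with adjusted p under 0.05. The change in the log2 difference was as follows: Cd36 -1.13, Lpl -0.90, Acsl1 -1.16, Acot2 -1.57, Cpt1b -1.25, Cpt2 -1.06, Slc25a20 -0.88, Crat -0.94, Mlycd -1.23, Acacb -1.07, Acads -0.68, Acadm -0.85, Acadl -0.76, Hadh -0.87, Hadha -0.89, Hadhb -0.84, Ech1 -0.89, Eci1 -0.91, Eci2 -0.74, Decr1 -0.73, Etfa -0.74, Etfdh -1.07, Ppara -0.88. The part of single arrays in these changes is given with the counts without them in the results.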

How the results depend on the processing

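The counts of genes higher with IGF1 at 24 h (28) and of 0 genes at 48 and 168 h were within 1.5 times under every alternative except the fit to the arrays at 24 h alone, which called 18 at 24 h (adjusted p of the 10 lost genes 0.0512 to 0.092). That fit called 435 of all 15875 genes higher, beside 1390 in the fit of all 24 arrays. Leaving out 1 array gave 19 to 29 at 24 h. Shares of all genes are not given for the fits that leave out 1 array. Among the time comparisons, vehicle 48 against 24 h (1 gene higher) gave 1 higher and 1 lower with normexp and 2 higher with slide as a block. It gave 2 higher and 1 lower both with cardiomyocyte scaling and with array weights. With only those groups fitted the direction turned, with 0 higher and 1 lower. Leaving out 1 array gave 0 to 2. Vehicle 168 against 48 h (0) gave 10 higher with quantile normalization (28.3% of all genes) and 12 lower with cardiomyocyte scaling (42.1% of all genes). It gave 1 higher with normexp, 2 lower with slide as a block, and 6 higher and 1 lower with array weights. In the same order these 3 fits called 7688, 6847 and 8966 of all 15875 genes in either direction. Leaving out 1 array gave 0 to 8. Vehicle 168 against 24 h (8) gave 14 with quantile normalization, 21 with cardiomyocyte scaling and 5 with only those groups fitted, and 6 to 10 leaving out 1 array. IGF1 168 against 48 h (5 lower) gave 3 higher with quantile normalization (25.3% of all genes) and 18 lower with cardiomyocyte scaling (42.0% of all genes). Leaving out 1 array gave 1 to 5. IGF1 48 and 168 h against 24 h gave 25 to 29 and 24 to 28 leaving out 1 array. The change of the IGF1 difference from 24 to 48 h (0) gave 2 with cardiomyocyte scaling and 7 with array weights, and 0 to 6 leaving out 1 array. That from 24 to 168 h (23) gave 11 with cardiomyocyte scaling and 14 with only those groups fitted, and 13 to 29 leaving out 1 array. The F-test (15) gave 8 with cardiomyocyte scaling and 8 without the filter on dim probes, and 4 to 26 leaving out 1 array. Single genes reversed only under cardiomyocyte scaling, to -0.27 for Lpl (vehicle 168 against 48 h), to -0.30, -0.24 and -0.27 for Crat, Acadl and Etfa (vehicle 168 against 24 h), to 0.0735 for Esrra (IGF1 48 against 24 h), and to -0.29 and -0.29 for Cpt2 and Etfa (IGF1 168 against 48 h). With a replicate block the 24 h count was 29, that of vehicle 48 against 24 h 3 and that of vehicle 168 against 48 h 2, and 0 genes were called at 168 h, also with the 168 h arrays alone. The block moved no other count by over 1.5 times. The cause of these shifts was not tested. At these sample numbers, log2 differences near 0.5 were often missed in simulated data.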

Other observations

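In vehicle hearts some genes of the other lipid and energy lists were called between 24 and 168 h. Over that interval 28.1% of all genes were called higher and 32.1% lower by limma. The lists are small, and their counts are not read as a result about the lists. Of 6 ketone genes 3 rose and 1 fell. Bdh1, which interconverts the ketone bodies, was 2.76-fold higher (SE of the log2 difference 0.23, Benjamini-Hochberg adjusted p = 1.57e-05). Of 14 genes listed as PPAR targets 3 rose and 6 fell. The lipid droplet coat gene Plin2 was lower (log2 difference -1.78, adjusted p = 1.08e-07), as was Angptl4, which inhibits lipoprotein lipase (-2.51, adjusted p = 8.45e-06). Of 20 respiratory chain genes 0 rose and 1 fell. Fibroblast and neutrophil markers changed over the same interval, and their part in these differences was not tested.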
